A study of Mus musculus with 12 samples.

Results

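The genes described here are 45 genes of mitosis, chosen by symbol from the 56860 named genes of a table of RNA-seq counts: the cyclins and kinases that start mitosis, the spindle checkpoint, the chromosomal passenger complex, the kinetochore, the spindle motors, the cytokinesis machinery, the chromosome condensation genes and the genes of anaphase. The choice was by role and used no threshold on a measured value, but it was made with earlier results of these data known. All 45 symbols were found. The counts came from 12 libraries of primary oligodendrocytes (OLs), the cells that make myelin, prepared from C57BL/6J mice. Cells carrying the O4 antigen were selected from the cortex of newborn mice (P6 to P7) according to the study's methods, whereas the labels name the medial prefrontal cortex as the tissue. Per the methods, the cells were first grown with the growth factor PDGF-AA and then kept in a medium for maturation. After this differentiation in culture, the cells of 6 libraries (siEgr2) were transfected with an interfering reagent against Egr2, a zinc-finger transcription factor of myelinating glia, and those of the other 6 (siNC) with a scrambled control. The study calls this reagent an siRNA in some places and a plasmid in others. All cells were harvested 48 h later. Neither the labels nor the methods say whether the 6 libraries of a group came from separate cultures or animals, so the p-values measure the spread between these libraries, which may be technical. Some libraries lay close together. By the chi-square statistic per gene between their counts, siEgr2 replicates 1 and 2, 3 and 5, and 4 and 6 formed pairs at 7.30 to 8.38, where the other siEgr2 pairings gave 12.55 to 26.5, and siNC replicates 1 and 5, and 3 and 6 formed pairs at 13.6 to 14.7, where the rest gave 22.4 to 42.1. The members of a pair were not copies, since sampling noise alone gives a value near 1, but they may not be independent, and the source of the pairs is not given in the labels. Counts for the 45 genes, for a list of other mitotic genes and for all tested genes are therefore also given with pairs summed. Each pair then made 1 unit, leaving 4 siNC and 3 siEgr2 units, a setting added after the data were seen. The other counts and p-values treat the 12 libraries as independent.

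Mitosis is driven by cyclin B bound to Cdk1, which condenses the chromosomes and sets up the spindle. Kinetochores assembled on the centromeres bind spindle microtubules, and the spindle checkpoint holds the anaphase-promoting complex inactive until every kinetochore is attached. The complex, with Cdc20, then marks securin and cyclin B for destruction, separase cuts the cohesin that joins sister chromatids, and the central spindle directs the ring that divides the cell. In the OL lineage the precursors divide and the myelin-forming cells do not.

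The siNC libraries held 28682946 to 39383014 counts and the siEgr2 libraries 8034251 to 16683677, so every siEgr2 library was shallower than every siNC library. The ribosomal RNA gene Rn18s-rs5 took 0.142% to 1.05% of counts in siNC and 10.5% to 16.5% in siEgr2, and depth, ribosomal share and treatment cannot be told apart by design. The targeted gene was low in both groups. Egr2 lay between 3.89 and 7.06 CPM in siNC (median 5.19) and between 2.22 and 4.86 CPM in siEgr2 (median 3.93). The groups overlapped, and the difference did not pass the test (log2 fold change -0.51, SE 0.21, edgeR adjusted p = 0.0981). Levels are CPM, that is, counts brought to a common library size with edgeR's TMM factors. Fold changes are siEgr2 over siNC. The adjusted p-values are those of the quasi-likelihood test in edgeR, corrected by Benjamini-Hochberg across 16600 tested genes. Genes are named called where the adjusted p was under 0.05 and the log2 fold change was beyond 0.5 in either direction.

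All 45 mitotic genes passed the filter on low counts and were tested. The adjusted p was under 0.05 for 44 of them with a higher level in siEgr2, against 8.57% of all tested genes, and for 1, Pttg1, with a lower level, against 11.3% of all tested genes. The rise was moderate. With the fold threshold as well, 11 of the 45 were called higher (2.63% of all tested genes) and 0 were called lower (5.08%). The called genes were Cdk1, Bub1, Aurkb, Cdca8, Cenpa, Cenpe, Kif2c, Prc1, Racgap1, Ncaph and Smc2. Incenp stood just under the fold threshold at 0.4999 and was not called. In 34 genes the lowest siEgr2 library exceeded the highest siNC library, which held for 4.15% of all tested genes. The 11 genes whose groups overlapped were Ccnb1, Bub3, Mad2l1, Ttk, Ndc80, Spc24, Knl1, Hmmr, Kif20a, Anln and Pttg1. The median log2 fold change of the 45 was 0.44, a fold of 1.36, beside 0.0046 over all tested genes. The 44 raised genes spanned folds of 1.15 to 1.65. Scaling by library size alone, which counts the ribosomal RNA and moved the median of all tested genes to -0.18, gave a median of 0.26 for the 45, with 34 past the adjusted p and higher and 2 called higher. The 10 genes that no longer passed under that scaling were Kif20a, Spc25, Hmmr, Ndc80, Knl1, Plk1, Anln, Ttk, Bub3 and Spc24. Over all tested genes it gave 237 called higher and 1737 called lower, in place of 437 and 844. With the closest libraries summed, 39 of the 45 passed and were higher, 0 passed and were lower by edgeR, 9 were called and the median was 0.44. Over all tested genes 727 then passed higher and 1177 lower, with 319 called higher and 652 called lower. Of the 45, those that no longer passed were Kif20a, Hmmr, Pttg1, Anln, Bub3 and Spc24.

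**Figure D1:**
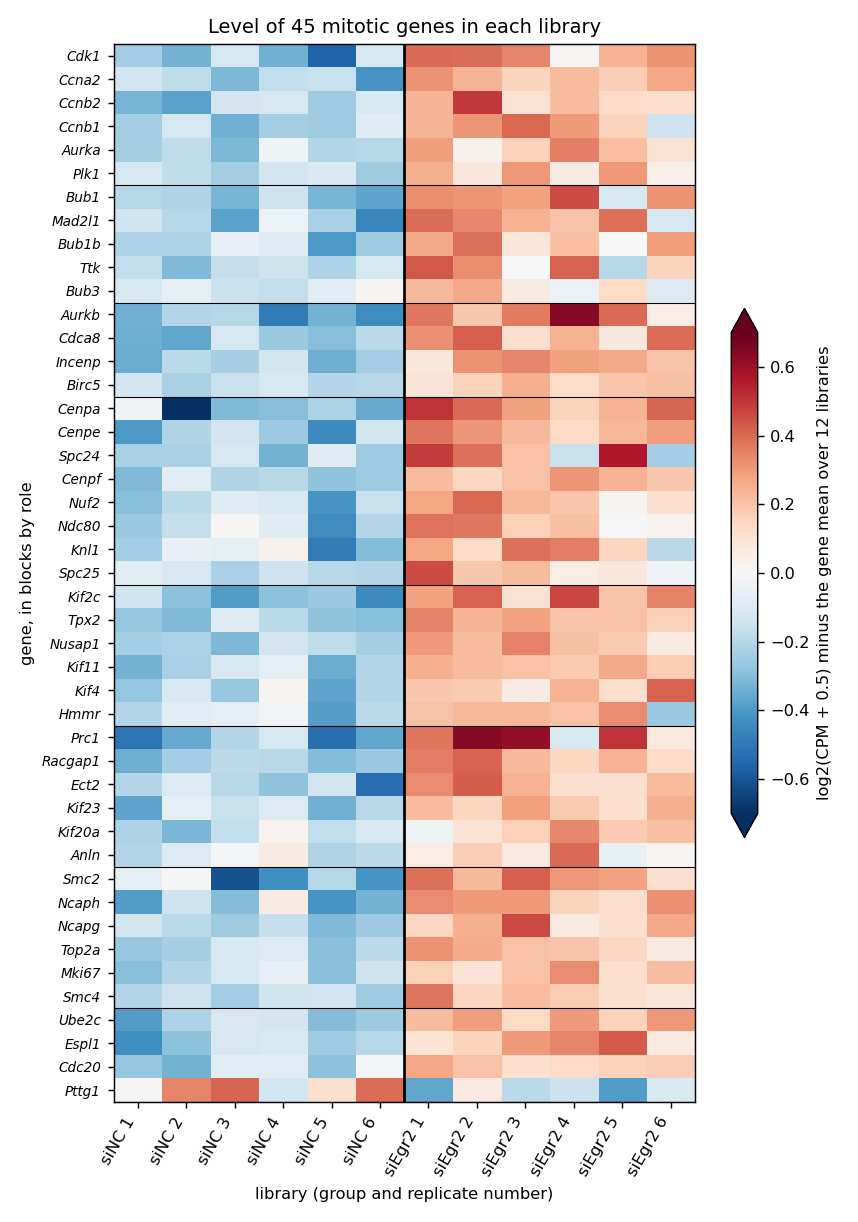
Level of each of the 45 mitotic genes (vertical axis, in blocks by role) in each of the 12 libraries (horizontal axis), as log2 of CPM plus 0.5 minus the mean of that gene over the 12 libraries. The 6 siEgr2 columns are red for most genes and the 6 siNC columns blue, and Pttg1, in the bottom line, shows the opposite colours.

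Summed over the 45 genes, the level was 2418 to 2672 CPM in siNC and 3258 to 3546 CPM in siEgr2, and the lowest siEgr2 sum was 1.22 times the highest siNC sum. As a share of raw counts, with no scaling between libraries, the genes took 0.258% to 0.285% in siNC and 0.296% to 0.335% in siEgr2. Each siEgr2 library held 37 to 45 of the genes above their own mean over the 12 libraries, and each siNC library 1 to 5. The smallest sums in siEgr2, 3326 and 3258 CPM, came from replicates 5 and 6, which were also the smallest libraries. Mki67 and Top2a, the members with the highest CPM, made up 21.6% to 23.8% of the sum in all 12 libraries.

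The promoters of many of these genes share 2 short elements. The cell cycle genes homology region (CHR), with the letters TTTGAA or TTCGAA, is bound by the MuvB core of the DREAM complex, which holds such genes down in resting cells, and by MuvB with Mybl2 and Foxm1 in dividing cells. The CCAAT box is bound by NF-Y. Both were searched on both strands, so that TTCAAA and ATTGG also counted, in windows from 250 bases before to 50 after the RefSeq start (GRCm38.p6). A window was found for 38 of the 45 genes and not for Aurkb, Tpx2, Spc24, Ccna2, Incenp, Kif20a and Smc4. A CHR was found in 30 of the 38 windows (78.9%), against 19.4% of the 27025 windows of the table and 13.4% of those of tested genes. For CCAAT the count was 28 of 38 (73.7%), against 37.9% and 39.1%. Both elements stood together in 26 (68.4%), against 7.7% and 5.88%. Among the 80 other mitotic genes described further on, 58% of windows held a CHR and 66.7% a CCAAT box, and among 36 DNA replication genes 20.7% and 62.1% did, so the high share of CCAAT was common to all 3 lists. The median log2 fold change was 0.44 in the 26 genes with both and 0.44 in the 6 with neither. In 7 of the 38 genes the RefSeq start lay over 50 bases inside the gene as annotated in GENCODE, so that their windows may miss another start. These are letter matches and not measured binding.

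The 150 bases before the start are given for Kif11, Top2a and Mki67, the genes with the smallest adjusted p among those with a CHR before both the RefSeq start and the first base of the gene in GENCODE, and for Anln, whose adjusted p was the largest. Ube2c and Kif2c, with smaller adjusted p than Mki67, had their CHR before the RefSeq start but inside the GENCODE gene, so they are not shown. The stretches lie at chr19:37376232-37376381 (plus strand), chr11:99024190-99024339, chr7:135716380-135716529 and chr9:22389207-22389356 (minus strand), build GRCm38, and run 5′ to 3′ along the gene. Capitals mark CHR and CCAAT letters.
Kif11: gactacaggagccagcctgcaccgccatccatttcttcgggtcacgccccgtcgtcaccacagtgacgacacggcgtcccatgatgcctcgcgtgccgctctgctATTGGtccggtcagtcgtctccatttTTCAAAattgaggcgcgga
Top2a: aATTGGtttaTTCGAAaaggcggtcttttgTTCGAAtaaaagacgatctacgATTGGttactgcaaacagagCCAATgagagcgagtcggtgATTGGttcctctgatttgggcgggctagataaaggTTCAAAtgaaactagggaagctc
Mki67: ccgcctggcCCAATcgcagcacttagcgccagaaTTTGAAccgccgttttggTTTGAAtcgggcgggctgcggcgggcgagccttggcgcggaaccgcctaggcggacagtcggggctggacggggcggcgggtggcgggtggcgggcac
Anln: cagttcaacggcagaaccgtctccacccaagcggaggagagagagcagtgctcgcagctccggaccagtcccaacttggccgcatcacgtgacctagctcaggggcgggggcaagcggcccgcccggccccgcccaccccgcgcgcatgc
Kif11 has 1 CCAAT box followed by 1 CHR. The whole window of Top2a holds 4 CHR matches and 6 CCAAT boxes, and that of Mki67 holds 2 and 3. Anln has no match in the bases shown, and its 2 CHR matches lie after the start. The window of Pttg1 held neither element, but its RefSeq start lies 270 bases inside the annotated gene.

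Among the cyclins and entry kinases, all 6 genes rose, 5 of them without overlap, and the median log2 fold change was 0.44. Cdk1, the kinase that drives entry into mitosis, lay between 34.1 and 46.8 CPM in siNC (median 41.3) and between 50.6 and 66.5 CPM in siEgr2 (median 63.4). It rose 1.48-fold (log2 fold change 0.57, SE 0.083, edgeR adjusted p = 0.000128). Plk1, a kinase of centrosome maturation and mitotic entry, moved least in this group. Its level was 42.6 to 47.3 CPM in siNC (median 45.5) and 52.0 to 62.8 CPM in siEgr2 (median 57.0), a rise of 1.28-fold without overlap (log2 fold change 0.35, SE 0.062, edgeR adjusted p = 0.000674). The cyclins Ccna2, Ccnb1 and Ccnb2 rose 1.37-, 1.35- and 1.37-fold, and the centrosomal kinase Aurka 1.31-fold. Ccnb1 overlapped through 1 library: siEgr2 replicate 6 had 70.9 CPM, while the other 5 siEgr2 libraries had 87.8 to 104 CPM and the siNC libraries 62.1 to 74.1 CPM.

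The 5 spindle checkpoint genes also rose, but only Bub1 and Bub1b did so without overlap. Bub1, a kinase that recruits the checkpoint to kinetochores, was called. Its level was 23.1 to 27.0 CPM in siNC (median 24.8) and 27.7 to 41.3 CPM in siEgr2 (median 37.3), a rise of 1.46-fold (log2 fold change 0.55, SE 0.083, edgeR adjusted p = 0.000189). Bub3, its partner in kinetochore binding, had the smallest change of the 44 raised genes. It lay between 84.6 and 96.6 CPM in siNC (median 89.0) and between 89.6 and 115 CPM in siEgr2 (median 103), with overlapping groups (1.15-fold, log2 fold change 0.20, SE 0.062, edgeR adjusted p = 0.0335). Bub3 missed the threshold in 7 of 12 fits that left out 1 library (siNC replicates 1, 3, 4 and 5 and siEgr2 replicates 1, 2 and 5), with log2 fold changes of 0.16 to 0.20 and edgeR adjusted p of 0.0514 to 0.087. Mad2l1, the protein that inhibits Cdc20 until kinetochores are attached, rose 1.40-fold, Bub1b, another part of that inhibitor, 1.34-fold, and the kinase Ttk, which starts the signal, 1.33-fold.

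The chromosomal passenger complex, which corrects wrong attachments and later moves to the central spindle, had the highest median log2 fold change of the role groups, 0.52. All 4 subunits rose without overlap, and their summed level went from 137 to 148 CPM in siNC to 192 to 209 CPM in siEgr2. Aurkb, the kinase of the complex, lay between 17.9 and 22.1 CPM in siNC (median 20.1) and between 26.3 and 39.9 CPM in siEgr2 (median 32.9). The rise was 1.61-fold (log2 fold change 0.69, SE 0.093, edgeR adjusted p = 6.36e-05). Cdca8, which encodes borealin, had 31.1 to 37.0 CPM in siNC (median 33.01) and 42.4 to 53.8 CPM in siEgr2 (median 48.8), and rose 1.45-fold (log2 fold change 0.53, SE 0.071, edgeR adjusted p = 5.2e-05). Without siEgr2 replicate 2 the log2 fold change of Cdca8 was 0.4966, under the fold threshold. The scaffold Incenp rose 1.41-fold. Birc5, or survivin, moved least of the 4. It had 30.9 to 33.5 CPM in siNC (median 32.0) and 38.6 to 43.3 CPM in siEgr2 (median 41.0), and rose 1.27-fold (log2 fold change 0.35, SE 0.052, edgeR adjusted p = 0.000148).

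At the kinetochore and centromere, all 8 genes rose and 5 did so without overlap. Cenpa, the histone H3 variant that marks the centromere, varied most of the 8 between siNC libraries, from 23.2 to 39.6 CPM (median 32.6), and lay between 44.9 and 57.5 CPM in siEgr2 (median 51.2). It rose 1.58-fold (log2 fold change 0.66, SE 0.10, edgeR adjusted p = 0.000225). Cenpe, the kinesin that brings chromosomes to the spindle equator, had 45.2 to 56.6 CPM in siNC (median 52.6) and 68.3 to 80.4 CPM in siEgr2 (median 74.2), a rise of 1.44-fold (log2 fold change 0.53, SE 0.064, edgeR adjusted p = 2.25e-05). Without siNC replicate 5 or siEgr2 replicate 1 the log2 fold change of Cenpe was 0.499 or less. The 4 subunits of the Ndc80 complex, the main microtubule binder of the kinetochore, had folds of 1.27 (Spc25), 1.32 (Ndc80), 1.34 (Nuf2) and 1.38 (Spc24). Spc25 moved least of the 8, from 19.2 to 21.3 CPM in siNC (median 20.0) to 22.1 to 31.1 CPM in siEgr2 (median 24.8), with no overlap (log2 fold change 0.34, SE 0.082, edgeR adjusted p = 0.00705). Spc24 was the least certain, since siEgr2 replicates 4 and 6, a close pair, had 8.67 and 8.19 CPM, within the siNC range of 7.64 to 9.10 CPM, and the other 4 had 11.3 to 14.6 CPM. Without siEgr2 replicate 1, 2 or 5 its edgeR adjusted p was 0.0576 to 0.0685, at log2 fold changes of 0.39 to 0.43. The scaffold Knl1 rose 1.31-fold and Cenpf, a large protein of the outer kinetochore, 1.36-fold.

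The 6 spindle motors and microtubule proteins rose as well, 5 of them without overlap. Kif2c, a kinesin that takes microtubule ends apart, had the largest change. Its level was 24.4 to 30.3 CPM in siNC (median 27.2) and 35.95 to 46.3 CPM in siEgr2 (median 41.5), and it rose 1.53-fold (log2 fold change 0.61, SE 0.074, edgeR adjusted p = 1.87e-05). Tpx2, which activates Aurka and nucleates microtubules, Nusap1, which bundles them, Kif11, the motor that pushes spindle poles apart, and the chromokinesin Kif4 rose 1.40-, 1.36-, 1.35- and 1.32-fold. Hmmr, a protein of the spindle poles, moved least, from 31.8 to 41.2 CPM in siNC (median 38.1) to 34.8 to 52.8 CPM in siEgr2 (median 48.8). Its groups overlapped through siEgr2 replicate 6 alone, and it rose 1.25-fold (log2 fold change 0.33, SE 0.089, edgeR adjusted p = 0.0164).

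The midzone and cytokinesis genes held the largest and 1 of the smallest rises of all 45. Prc1, which bundles antiparallel microtubules at the central spindle, lay between 42.3 and 56.3 CPM in siNC (median 47.7) and between 56.6 and 95.5 CPM in siEgr2 (median 83.4). It rose 1.65-fold (log2 fold change 0.72, SE 0.13, edgeR adjusted p = 0.00123), with the largest standard error of the called genes. The 6 siEgr2 levels of Prc1 were spread out: replicates 4 and 6, a close pair, had 56.6 and 64.5 CPM, and the other 4 had 79.5 to 95.5 CPM. Racgap1, a subunit of centralspindlin, had 86.5 to 96.9 CPM in siNC (median 92.3) and 121 to 146 CPM in siEgr2 (median 129), a rise of 1.43-fold (log2 fold change 0.51, SE 0.053, edgeR adjusted p = 4.45e-06). Its log2 fold change was 0.48 to 0.4955, under the fold threshold, without siNC replicate 1 or siEgr2 replicate 1 or 2. Its partner in that complex, Kif23, rose 1.33-fold, and Ect2, the exchange factor that activates RhoA at the cell equator, 1.40-fold. Kif20a, a kinesin that carries the passenger complex to the midzone, rose 1.25-fold. Anln, or anillin, is a scaffold of the contractile ring that also takes part in the septin scaffold of central myelin. It lay between 36.6 and 44.2 CPM in siNC (median 38.5) and between 41.0 and 56.1 CPM in siEgr2 (median 44.3). The groups overlapped, and the adjusted p was near the threshold (1.17-fold, log2 fold change 0.23, SE 0.077, edgeR adjusted p = 0.0487). It missed the threshold in 9 of the 12 fits without 1 library, all but those without siNC replicate 4 or siEgr2 replicate 5 or 6, with log2 fold changes of 0.16 to 0.25 and edgeR adjusted p of 0.0514 to 0.114.

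Every one of the 6 chromosome structure genes rose without overlap. Smc2, the ATPase subunit shared by both condensins, had 54.0 to 82.4 CPM in siNC (median 67.0) and 89.7 to 111 CPM in siEgr2 (median 101.5), a rise of 1.48-fold (log2 fold change 0.57, SE 0.094, edgeR adjusted p = 0.000548). Ncaph, the subunit that closes the condensin I ring, had 32.6 to 45.3 CPM in siNC (median 34.8) and 47.5 to 54.9 CPM in siEgr2 (median 53.6), and rose 1.42-fold (log2 fold change 0.51, SE 0.080, edgeR adjusted p = 0.000245). In 8 of the 12 fits without 1 library, all but those without siNC replicate 2 or 4 or siEgr2 replicate 4 or 5, Ncaph fell just short of the fold threshold, at 0.48 to 0.4978. Ncapg, of the same complex, rose 1.36-fold. Smc4, the other ATPase subunit, moved least. It had 89.3 to 96.8 CPM in siNC (median 94.1) and 113 to 138 CPM in siEgr2 (median 119), and rose 1.30-fold (log2 fold change 0.38, SE 0.050, edgeR adjusted p = 5.57e-05). Mki67, the coat protein of mitotic chromosomes used as a marker of dividing cells, rose 1.30-fold, and Top2a, which untangles sister chromatids, 1.31-fold.

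Of the 4 genes of anaphase and mitotic exit, 3 rose without overlap and 1 fell. Ube2c, the ubiquitin-conjugating enzyme of the anaphase-promoting complex, had 57.5 to 70.1 CPM in siNC (median 64.2) and 83.4 to 93.5 CPM in siEgr2 (median 90.5), a rise of 1.39-fold (log2 fold change 0.47, SE 0.055, edgeR adjusted p = 1.47e-05). Espl1, or separase, rose 1.38-fold. Cdc20, the activator of the complex, had 61.4 to 76.4 CPM in siNC (median 68.5) and 83.3 to 93.1 CPM in siEgr2 (median 86.7), and rose 1.27-fold (log2 fold change 0.35, SE 0.060, edgeR adjusted p = 0.000503). Pttg1, or securin, is the inhibitor of separase and lies at chr11:43420250-43426251. It had 5.94 to 8.83 CPM in siNC (median 7.76) and 4.87 to 6.84 CPM in siEgr2 (median 5.76). The groups overlapped, and it fell to 0.752 times its siNC level (log2 fold change -0.41, SE 0.14, edgeR adjusted p = 0.0451). Pttg1 had the lowest level of the 45 genes, with 203 to 364 counts in siNC libraries and 38 to 92 in siEgr2 libraries. Pttg1 missed the threshold in 9 of the 12 fits without 1 library, all but those without siNC replicate 1 or 4 or siEgr2 replicate 2, with log2 fold changes of -0.43 to -0.36 and edgeR adjusted p of 0.0554 to 0.104.

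**Figure D2:**
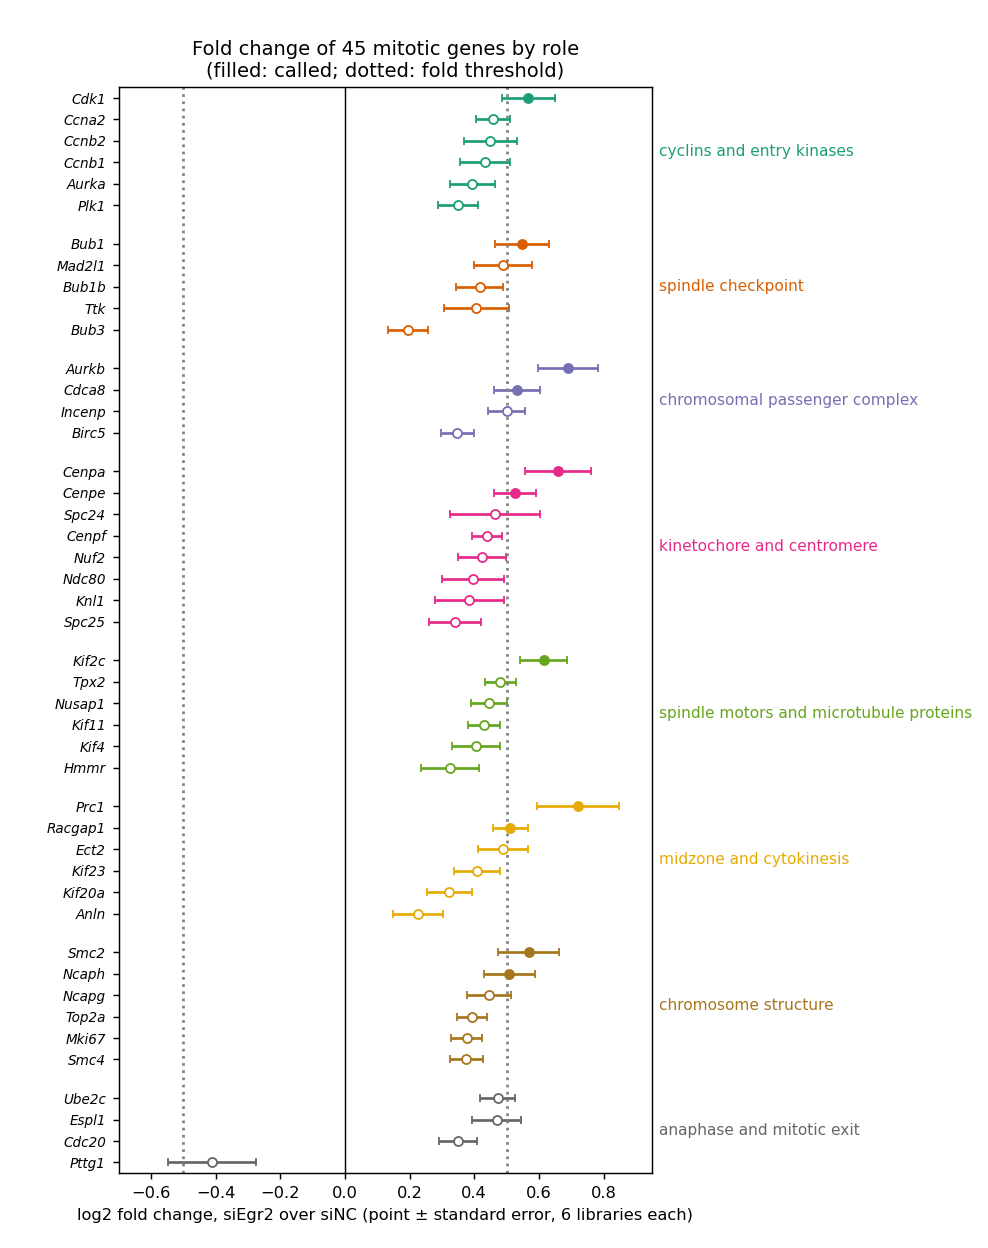
Log2 fold change (siEgr2 over siNC, 6 libraries each) of each of the 45 mitotic genes, in blocks by role, with bars of 1 standard error on either side. Filled points are the 11 called genes, dotted lines mark the fold threshold of 0.5, and all points but Pttg1 lie right of 0.

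Many of the raised genes moved by similar amounts, though as a whole they spanned log2 fold changes of 0.20 (Bub3) to 0.72 (Prc1). The log2 fold change lay between 0.3 and 0.5 in 31 of the 45, and in 38 it lay within 2 of the gene's own standard errors of the median member, at a median standard error of 0.074. Beyond that distance lay Aurkb, Cenpa, Kif2c and Prc1 on the upper side and Bub3, Anln and Pttg1 on the lower side. Across the 45 genes, which share the same libraries, Pearson's r between log2 fold change and log2 siNC level was 0.186 and Spearman's rho was -0.0079.

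**Figure D3:**
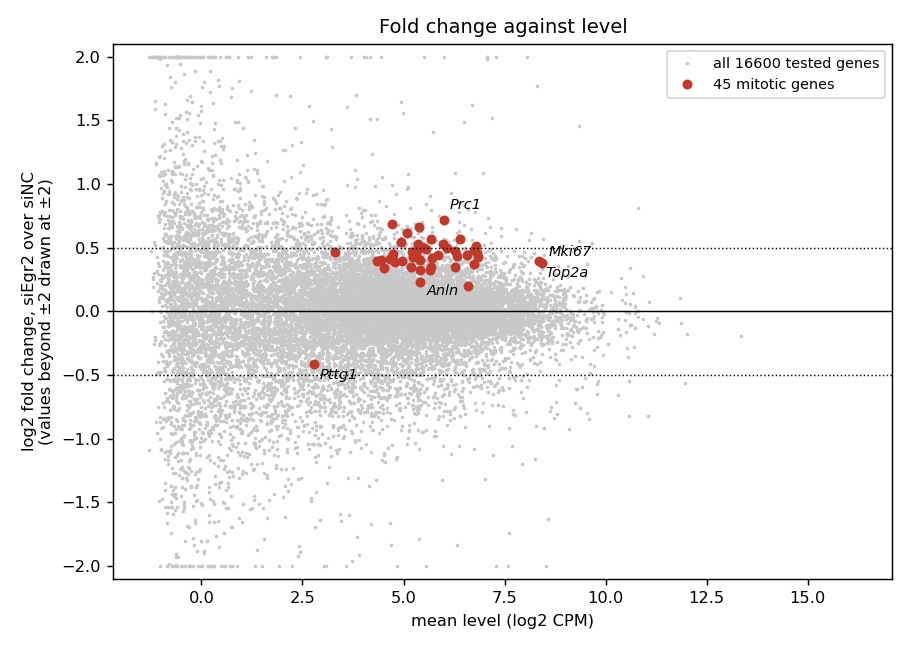
Log2 fold change (siEgr2 over siNC) against mean level (log2 CPM) for the 16600 tested genes (grey) and the 45 mitotic genes (red), with values beyond 2 drawn at the edge and dotted lines at the fold threshold. The mitotic genes form a band around 0.44 at all levels from the middle to the upper part of the range, and Pttg1 lies alone below 0.

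Per kilobase of exon, the highest siNC levels among the members were 36.7 CPM per kb for Cdc20, 31.55 for Top2a, 29.9 for Mki67, 24.75 for Ube2c and 23.3 for Ccna2. The lowest were 2.68 CPM per kb for Ndc80, 2.76 for Kif23 and 2.81 for Knl1. The median over the members was 7.24 CPM per kb in siNC (Ect2), which was above 60.2% of the 15862 tested genes with a length, and 11 CPM per kb in siEgr2 (another gene, Aurkb). By comparison, the precursor gene Pdgfra had 52.05 CPM per kb and the myelin gene Mbp 216 in siNC. The order of the members by level was nearly the same in both groups (rank correlation 0.987 across the 45 genes).

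Of 80 other genes of mitosis, a list of further kinetochore, spindle, condensin, centrosome and anaphase genes, 51 rose, 0 fell and 29 did not pass, with a median log2 fold change of 0.35 and 28 without overlap. Over all tested genes 8.57% rose, 11.3% fell and 4.15% lay higher without overlap. With the closest libraries summed, 32 of the 80 rose, and with scaling by library size alone 23 rose and 4 fell. Among those called were Cenpw (log2 fold change 0.68), Parpbp (0.63), Kif15 (0.53), Troap (0.52) and Cenpk (0.52). Cenpw and Cenpk belong to the inner kinetochore, and Kif15 is a spindle kinesin. The subunits Cdc16, Cdc23, Cdc27, Anapc1, Anapc5 and Anapc11 of the anaphase-promoting complex, grouped after their values were seen, had log2 fold changes of 0.010 to 0.088 that did not pass (edgeR adjusted p = 0.314 for Cdc23 to 0.893 for Anapc1, unadjusted p = 0.143 and 0.804). Among 24 genes of mitotic transcription control, 7 rose and 0 fell, at a median of 0.21. Of these, E2f7, a repressor of the E2F family, was called (0.62). Mybl2 rose (log2 fold change 0.49, edgeR adjusted p = 7.22e-05), and Foxm1 had a log2 fold change of 0.21 that did not pass (edgeR adjusted p = 0.468). Foxm1 levels were spread out in siEgr2, from 28.7 to 67.6 CPM (median 61.8), beside 42.8 to 57.3 CPM in siNC (median 47.6). Its siEgr2 median lay above the highest siNC library. DNA replication genes rose in 26 of 36 cases with 0 falling, at a median of 0.36. Counts for this list and for the transcription control list were not repeated under library-size scaling or with the closest libraries summed.

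**Figure D4:**
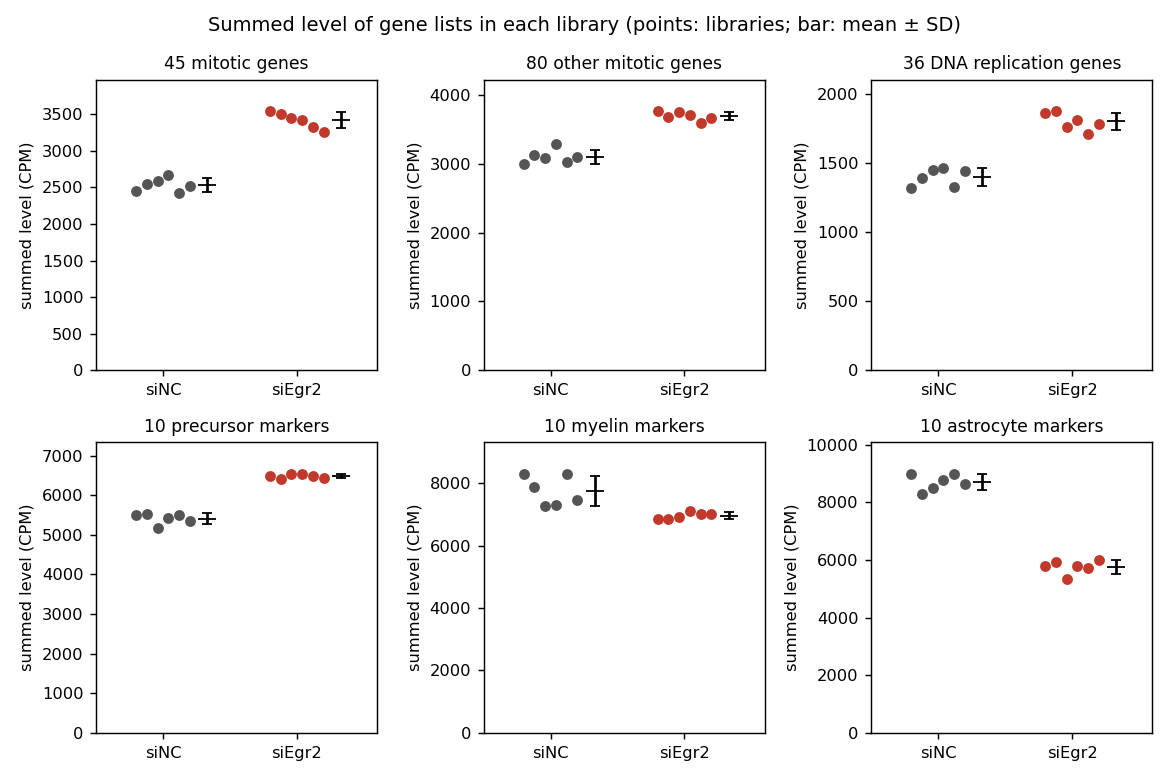
Summed level (CPM) of 6 gene lists in each library, with points for the 6 siNC (grey) and 6 siEgr2 (red) libraries and the mean with its SD beside them. The 45 mitotic genes, the other mitotic genes, the replication genes and the precursor markers were higher in all 6 siEgr2 libraries, and the astrocyte and myelin markers lower.

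Among cell type markers, those of OL precursors had a positive median log2 fold change, like the mitotic genes. The medians of the myelinating OL, the astrocyte, and the fibroblast and pericyte markers were negative. The counts are to be read beside 8.57% of all tested genes rising and 11.3% falling, with 2.63% and 5.08% called. They were not repeated under other scalings or with the closest libraries summed. Of 10 markers of OL precursors, 7 rose and 0 fell, and their summed level was 5181 to 5536 CPM in siNC and 6422 to 6547 CPM in siEgr2. The list was Pdgfra, Cspg4, Ptprz1, Gpr17, Olig1, Olig2, Sox10, Lhfpl3, C1ql1 and Neu4, and whether precursors were more frequent was not tested. Of 10 markers of myelinating OLs, 0 rose and 3 fell, with sums of 7283 to 8308 CPM and 6841 to 7122 CPM. Of 10 astrocyte markers, 0 rose and 7 fell, 5 of them called, with sums of 8295 to 8995 CPM and 5321 to 6011 CPM, so that astrocyte RNA was present in all 12 libraries. Microglial markers were near 0 in both groups, with sums of 4.42 to 7.45 CPM and 2.52 to 7.91 CPM, and Aif1 was at 0 in every library. Of the 10, 4 could be tested and did not pass. Endothelial sums were 41.7 to 52.7 CPM and 43.5 to 53.3 CPM, with Cldn5 at 0 throughout, and of 5 markers tested 0 rose and 1 fell, Flt1, which was called. Neuronal sums were 430 to 684 CPM and 415 to 656 CPM, and of 9 markers tested 1 rose and 2 fell, 1 of them called, which with so few markers is near those shares. Of 8 fibroblast and pericyte markers tested, 0 rose and 4 fell, 3 of them called, at a median log2 fold change of -0.36, with overlapping sums of 832 to 1380 CPM and 845 to 1047 CPM. The part of these cell types in the rise of the mitotic genes was not tested, and in bulk libraries more dividing cells cannot be told apart from more mitotic RNA per cell.

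Some counts could include reads of other genes, since how shared reads were counted is not given in the sources used here. Of all 50-base words in the transcripts of Ccnb1, 23.4% also occurred in other genes on the same strand, and the share was 10.4% for Cdc20 and 6.56% for Plk1. On the opposite strand, 25.2% of the words of Kif20a lay in Cdc23, and the shares were 15.1% for Ube2c, 14.2% for Kif4, 11.8% for Ncapg, 11.4% for Ccna2 and 8.99% for Prc1. Pttg1, Aurka and Aurkb shared 0 words.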

How the data were processed

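The authors deposited raw counts per gene symbol for 12 libraries (6 siNC, 6 siEgr2) made from total RNA. Per the labels, the genome build was mm10. The aligner, the counting program and its use of strand are not given in the sources used here. The mitotic genes and all other lists were chosen with earlier results of these data known, so no list is independent evidence.

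A blank row (1 of the table) was left out. Genes were kept by filterByExpr (16600 of 30142 with any count), scaled by TMM and tested with edgeR 4.0.16 in R 4.3.3 (quasi-likelihood test, robust, no covariate, biological coefficient of variation 0.170), with Benjamini-Hochberg adjustment over all 16600. The study's methods give the same thresholds, adjusted p under 0.05 and log2 fold change over 0.5, and do not name the test. Standard errors are the absolute log2 fold change divided by the square root of F. The scripts were tested on simulated data. Gene positions and exon lengths came from GENCODE vM21 and promoters from RefSeq.

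Given in full were the called members, those with the largest and smallest change in each role group, and Pttg1, the only fall. Alternatives were other scalings, DESeq2 1.42.0, limma 3.58.1 (voom), other filters, thinning to 8034251 counts, removal of structural RNA genes, a replicate block, other fold thresholds, leaving out each library and, added after the data were seen, summing the libraries of a group that were nearest to each other. The depth behind each value is the library total, and the lowest count of a member in a library was 38. The replicate numbers did not pair the libraries. The values of 1 other gene are not reported here.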

Additional observations from a re-analysis of the deposited data

Results flagged for a closer look

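Single libraries stood apart from the others of their group for 3 genes, all in siEgr2. Ccnb2 had 37.2 CPM in replicate 2, where the other 5 libraries had 28.2 to 31.1 CPM. Bub1 had 27.7 CPM in replicate 5, against 36.4 to 41.3 CPM in the others, and this value remained above the highest siNC level of 27.0 CPM. Hmmr had 34.8 CPM in replicate 6, against 48.2 to 52.8 CPM in the others. In all, 92 groups of 6 values were examined by the gap of the extreme library divided by the range of its group, and chance gives about 4.6 such values.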

How the results depend on the processing

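Over 23 other settings, the comparisons of the 45 genes with the adjusted p threshold came to 1035, of which 984 stayed on the same side, 51 lost it and 0 reversed. In every setting 44 genes had a higher level in siEgr2, and 34 passed in all of them. Leaving out each library in turn gave 8 to 13 of the 45 called and 41 to 44 passed higher. Over all tested genes these fits gave 386 to 468 called higher and 1174 to 1359 passed higher. The 7 members called each time were Cdk1, Bub1, Aurkb, Cenpa, Kif2c, Prc1 and Smc2. The number of members that passed with a lower level, Pttg1, was 0 to 1 in these fits, 0 with limma-voom and 0 with the replicate block, under which 43 passed higher and 11 were called. Over all tested genes the replicate block gave 349 called higher and 1146 passed higher. The replicate numbers showed no pairing (correlations of -0.021 to 0.052 between same-numbered libraries). Pttg1 passed in 11 of the 23 settings (adjusted p 0.00282 to 0.185), Bub3 in 12 and Anln in 10. Scaling by library size only shifted the median of all tested genes to -0.18 and that of the 45 genes to 0.26. It left 2 of the 45 called higher and 1 called lower, 34 passed higher, and over all genes 237 called higher, 1737 called lower, 505 passed higher and 5412 passed lower. Of the 80 other mitotic genes 23 then passed higher and 4 lower. With no filter on low counts 7 of the 45 were called and 41 passed higher, where over all genes 655 were called higher and 1046 lower. At a fold threshold of 0.25, 42 of the 45 were called higher and 1 lower, with 1063 and 1456 over all genes, and at 1 the 45 gave 0 higher, with 177 and 196 over all genes. Thinning every library to 8034251 counts left 43 passed higher and 12 called, and without structural RNA genes these were 44 and 12. Over all genes, thinning gave 1231 passed higher and 350 called higher, and without structural RNA genes these were 1495 and 444. Of the 45 genes, only Anln lost the threshold on thinning. With the closest libraries summed, which was added after the data were seen, 39 of the 45 passed higher, 0 passed lower and 9 were called, 32 of the other mitotic genes passed higher, and over all genes 727 passed higher and 1177 lower. In that setting 319 of all genes were called higher and 652 lower.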

Other observations

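Of 15 CDK inhibitors and G1 cyclins and kinases, 5 rose, 3 fell and 7 did not pass, where 8.57% of all tested genes rose and 11.3% fell. For so short a list the 3 falls are near that share. Ccne2, a cyclin of entry into S phase, rose 1.48-fold and was called (log2 fold change 0.56, edgeR adjusted p = 0.0015). The 3 that fell were also called, as were 5.08% of all tested genes in that direction. The cyclin Ccnd2 fell from 285 to 393 CPM in siNC to 174 to 210 CPM in siEgr2 (log2 fold change -0.79, edgeR adjusted p = 1.1e-05), the CDK inhibitor Cdkn2b had a log2 fold change of -0.94 (edgeR adjusted p = 3.89e-05), and the kinase Cdk6 of -0.76 (edgeR adjusted p = 0.00258). The levels of Ccnd2 and Cdkn2b did not overlap between the groups, and those of Cdk6 did.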
